A study of Mus musculus with 11 samples.

Results

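MAP kinases and the genes that restrain ERK signalling were followed across an edited series of mouse hepatocytes. The set held 9 genes of the 24849 in the deposited table, taken by name, with read counts summed over all table entries that carried the same name. It comprised the JNK genes Mapk8 and Mapk9, the p38 genes Mapk12 and Mapk14, the MAP kinase phosphatases Dusp4 and Dusp6, the Sprouty genes Spry2 and Spry4, and Pea15a. These genes were chosen with their fold changes in these same libraries in view, so their values are a description and carry no test. The 11 libraries were poly(A) RNA from AML12, a hepatocyte line established from a mouse with a transforming growth factor alpha transgene, and fell into 4 KO, 3 WT and 4 KI libraries. KO cells carried the genotype "TXNDC5 Knockdown" in the labels and, by the study's methods, were a puromycin-selected stable line cut by CRISPR/Cas9 in the fifth exon of Txndc5, with no statement of whether it was a single clone. KI cells carried the genotype "TXNDC5 Knockin", with Txndc5 overexpressed from the ROSA26 locus, and WT cells were the unedited line. The libraries were numbered 5 to 8 in KO and KI and 5-6, 7 and 8 in WT. By the study's methods the line was grown in medium with serum, insulin and dexamethasone. No source used here says whether libraries of a group came from separate cultures, so the spread between them, which is all the p-values measure, may be technical, and a difference between the edited lines cannot be told apart from a difference between selected cell populations.

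A MAP kinase cascade passes a signal from a receptor through RAS and RAF or another MAP3 kinase to a MAP2 kinase, which phosphorylates the MAP kinase itself. ERK answers mainly to growth factors and drives hepatocyte proliferation in the regenerating liver, while JNK and p38 answer mainly to stress and cytokines, among them oxidative and lipid stress in hepatocytes. Active ERK also induces its own inhibitors, the DUSP phosphatases that dephosphorylate it and the Sprouty proteins that act upstream near RAS and RAF. All of these kinases are switched by phosphorylation, which an RNA level does not measure.

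Total counts ran from 29840366 to 38422243 per library. The most abundant unannotated entry took 17.1%, 13.8% and 11.3% of them in WT 5-6, 7 and 8. It took 4.32% to 6.44% in KO and 4.82% to 9.12% in KI. This entry counts in the library totals, by which levels were scaled in one alternative below, and its part in the differences between scalings was not tested. Txndc5, the targeted gene, stood at 8.50 to 12.9 CPM (read counts scaled per library size, after edgeR's trimmed mean of M values, TMM, over all 11 libraries) in KO, 138 to 147 in WT and 158 to 179 in KI. The KI libraries lay above every WT library, but the difference (log2 fold change 0.24 ± 0.12, SE) did not pass the test across all genes (adjusted p = 0.136, quasi-likelihood test in edgeR, p-values adjusted by Benjamini and Hochberg). The 10 hepatocyte markers summed to 8405 to 10362 CPM in KO, 5102 to 6916 in WT and 7269 to 8770 in KI. Among them Alb was at 3588 to 4766, 373 to 739 and 160 to 302 CPM and Hnf4a at 266 to 292, 82.0 to 135 and 121 to 139 CPM in KO, WT and KI, while Serpina1c was at most 1.83 CPM in any library and Apoa1 was at 16.7 to 28.1 CPM in KO but 0.391 to 1.98 in WT and KI. Ttr went the other way, at 393 to 532, 612 to 1042 and 494 to 733 CPM in KO, WT and KI. Krt8, a large part of the sum, was at 2378 to 3110, 2427 to 3357 and 3865 to 4700 CPM. Krt18 was at 910 to 1028, 797 to 1287 and 1231 to 2193 CPM. The sum therefore does not describe each marker. The 4 cholangiocyte markers summed to 1086 to 1221 CPM in KO, 861 to 1091 in WT and 709 to 974 in KI, mostly Krt19. Krt7 went the other way, at 15.1 to 18.2 CPM in KO, 166 to 188 in WT and 107 to 131 in KI, and Epcam was at 0 in every library. Sox9 was also lower in KO (27.6 to 37.8 CPM) than in WT (40.3 to 57.2), with KI at 30.7 to 43.1. Markers of other liver cell types were at or near 0: the 7 stellate cell or fibroblast markers summed to at most 1.15 CPM and the 4 endothelial markers to at most 0.425 CPM, while the 5 immune markers summed to 2.04 to 2.58 CPM in KO, 6.64 to 9.56 in WT and 3.24 to 6.66 in KI. In bulk RNA, fewer cells of a type cannot be told apart from less RNA per cell. WT 8 stood apart from the other WT libraries: over 11869 genes its median absolute log2 difference from WT 5-6 was 0.415 and from WT 7 was 0.322, against 0.210 between those other WT libraries and 0.134 to 0.243 within KO or KI. Members' values and list counts without WT 8 are therefore given beside those with it where they moved by over 1.5 times or a member's call changed.

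All 9 genes passed the filter on low counts in each comparison. Of 13359 genes tested in KO against WT, 55.1% were called at an adjusted p under 0.05 (26.7% higher and 28.4% lower) and 55.3% had groups that did not overlap. Among the 9 genes, 2 were called higher, 5 lower and 8 had non-overlapping groups. In KI against WT, 42.3% of 13534 genes were called (21.2% higher, 21.0% lower) and 44.7% did not overlap, and of the 9 genes 2 were called higher, 3 lower and 4 did not overlap. In KO against KI, 54.0% of 13269 genes were called (27.0% higher, 27.0% lower) and 48.6% did not overlap, and of the 9 genes 2 were called higher, 6 lower and 8 did not overlap. The choice of the genes used these contrasts, so nothing is read from those counts. Both comparisons with WT share the same 3 WT libraries.

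**Figure D1:**
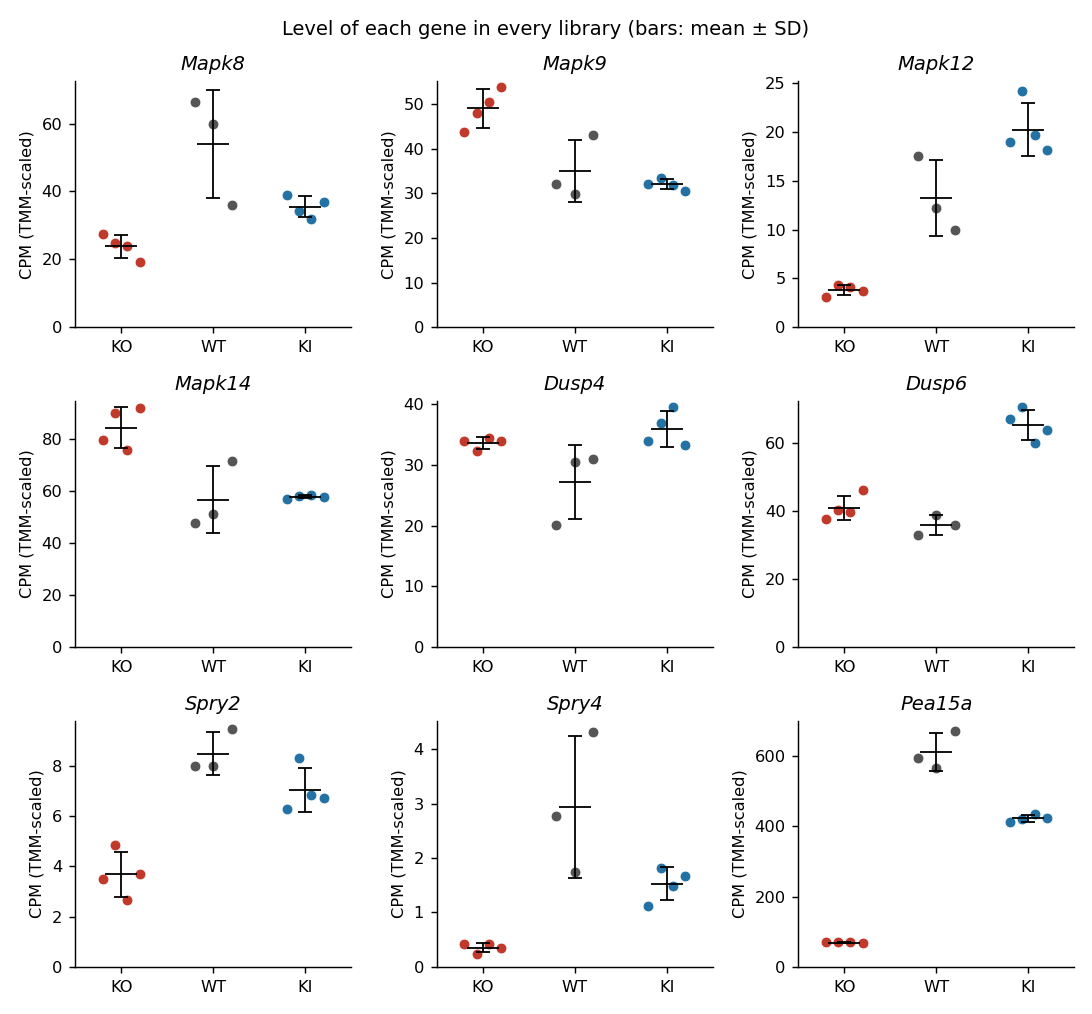
Level of each of the 9 genes in every library, in TMM-scaled CPM on linear axes from 0, with a point per library in KO (n = 4), WT (n = 3) and KI (n = 4) and bars for mean ± SD. Pea15a, Mapk8, Mapk12, Spry2 and Spry4 were lowest in the KO libraries, while Dusp6 was highest in the KI libraries.

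The JNK genes went opposite ways in KO cells. Mapk8, which encodes JNK1, was measured at 27.4, 25.0, 23.9 and 19.2 CPM in KO libraries 5 to 8, at 66.3, 59.8 and 36.1 CPM in WT libraries 5-6, 7 and 8, and at 39.1, 34.2, 32.0 and 36.9 CPM in KI libraries 5 to 8. Every KO library lay below every other library, and WT 8 lay within the KI range. The log2 fold change of Mapk8 was -1.20 ± 0.20 (SE) in KO against WT, which is 2.29-fold lower, -0.60 ± 0.19 in KI against WT and -0.57 ± 0.12 in KO against KI. Without WT 8 the values against WT were -1.39 in KO and -0.83 in KI. The KI difference was not called with scaling by library totals (-0.25) or without WT 5-6 (-0.43), WT 7, KI 6 or KI 7. Mapk9, which encodes JNK2, was at 43.7, 48.1, 50.5 and 53.9 CPM in KO, at 32.1, 29.9 and 43.0 CPM in WT and at 32.1, 33.4, 31.9 and 30.6 CPM in KI. Each KO library was above each WT and KI library, although WT 8 came within 1 CPM of KO 5. Its log2 fold change was 0.47 ± 0.15 in KO against WT and 0.62 ± 0.09 in KO against KI, and the first of these was 0.67 without WT 8 and 0.86 with scaling by library totals. It was not called without KO 7, KO 8, WT 5-6 or WT 7, where it was 0.39 to 0.45. Between KI and WT, Mapk9 differed by -0.13 ± 0.15, with a 95% interval from -0.45 to 0.20, and the sign turned to 0.05 without WT 8 and to 0.18 with library totals.

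Within a library, the ratio of Mapk8 to Mapk9 counts needs no scaling. It was 0.357 to 0.628 in KO, 1.00 to 1.22 in KI, and 2.06, 2.00 and 0.840 in WT 5-6, 7 and 8. These are ratios of read counts, which also carry the different lengths of the transcripts. The KO ratios lay below all others, and WT 8 lay below the KI libraries while the other WT libraries lay above them. Per kilobase of annotated exon (GENCODE vM21), mean levels in WT were 4.72 CPM for Mapk8 and 5.16 CPM for Mapk9, and in KO 2.09 and 7.23 CPM.

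Because the JNK genes moved apart, the stretch just upstream of each start site is shown here, from RefSeq on GRCm38.p6 and matched by symbol, which held 7 of the 9 genes. The 250 bases upstream of Mapk8 lie at chr14:33447159-33447408 on the minus strand and those of Mapk9 at chr11:49846501-49846750 on the plus strand, both 5′ to 3′ and ending at the start site. Mapk8 also had a second, downstream start in RefSeq, whose window is not printed. Capitals mark matches, on either strand, to any of 5 motifs chosen with these sequences in view: the GC box GGGCGG, the CCAAT box CCAAT, the AP-1 site TGACTCA, the ETS site CCGGAAG and the E-box CACGTG, none of which overlapped another here.
Mapk8: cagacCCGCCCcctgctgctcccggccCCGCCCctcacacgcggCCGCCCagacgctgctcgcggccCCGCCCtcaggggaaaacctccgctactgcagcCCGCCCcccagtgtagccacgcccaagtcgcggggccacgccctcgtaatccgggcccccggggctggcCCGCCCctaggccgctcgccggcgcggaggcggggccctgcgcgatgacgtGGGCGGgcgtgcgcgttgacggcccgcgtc
Mapk9: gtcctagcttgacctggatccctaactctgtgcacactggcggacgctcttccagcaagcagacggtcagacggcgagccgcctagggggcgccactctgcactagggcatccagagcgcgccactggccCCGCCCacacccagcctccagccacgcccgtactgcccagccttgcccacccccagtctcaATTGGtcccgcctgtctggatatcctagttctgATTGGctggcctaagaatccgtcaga
The Mapk8 window held 7 GC boxes and no match to the other motifs, and 79.2% of its bases were G or C. The Mapk9 window held 1 GC box and 2 CCAAT boxes, with 63.6% G or C. Over all 32851 windows of this length, 32.7% held a GC box, 33.8% a CCAAT box, 4.46% the AP-1 site, 6.91% the ETS site and 6.02% the E-box, and the median window was 52.4% G or C. A match describes the letters in the window and is not a measured binding site.

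**Figure D2:**
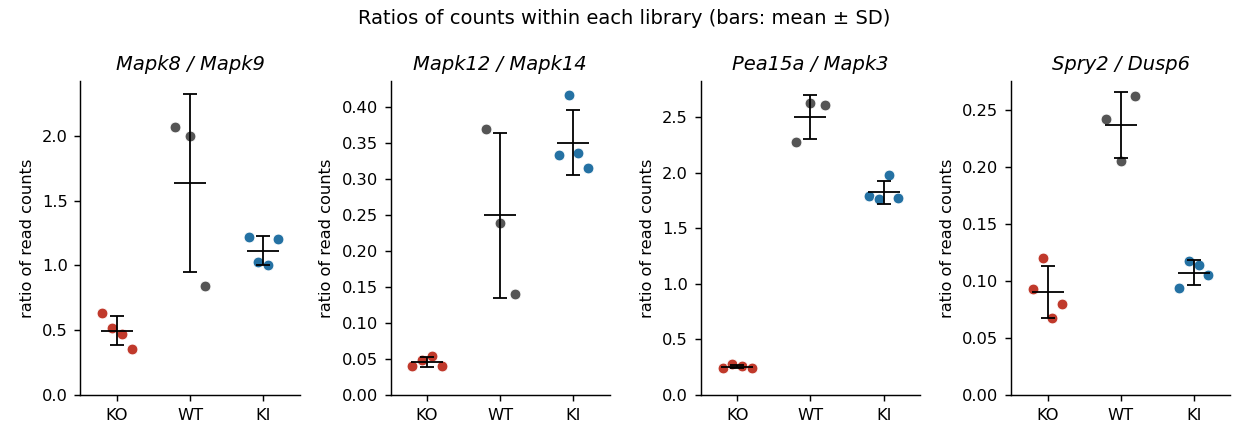
Ratios of read counts within each library for Mapk8 to Mapk9, Mapk12 to Mapk14, Pea15a to Mapk3 and Spry2 to Dusp6, on linear axes from 0, with a point per library and bars for mean ± SD. The KO libraries were lowest for the first 3 ratios, and for Spry2 to Dusp6 the WT libraries (0.205 to 0.263) lay above both edited lines.

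The p38 genes also moved apart in KO cells. Mapk12, which encodes p38 gamma, a form most abundant in skeletal muscle, was at 3.14, 4.35, 4.08 and 3.68 CPM in KO, at 17.5, 12.2 and 9.98 CPM in WT and at 19.0, 24.1, 19.7 and 18.1 CPM in KI. The order was KO, WT, KI, and no neighbouring groups overlapped. In counts, KO libraries held 112 to 160 reads of it and KI libraries 595 to 876. Its log2 fold change was -1.79 ± 0.22 in KO against WT (3.47-fold lower), 0.61 ± 0.20 in KI against WT and -2.39 ± 0.15 in KO against KI. The KI difference was no longer called without WT 8 (0.45), WT 7 (0.56) or KI 6 (0.52).

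Mapk14 encodes p38 alpha, the main p38 kinase of most tissues. Its level was 79.6, 90.0, 75.8 and 91.8 CPM in KO, 47.5, 51.1 and 71.3 CPM in WT and 57.0, 57.9, 58.6 and 57.5 CPM in KI. The KO libraries lay above all others, and the KI libraries, which spread over less than 2 CPM, lay between WT 7 and WT 8. The log2 fold change was 0.55 ± 0.16 in KO against WT and 0.55 ± 0.09 in KO against KI. Against WT it was 0.78 without WT 8, 0.94 with library totals, and 0.51 and not called without WT 7. Between KI and WT it was 0.03 ± 0.15 (95% interval -0.30 to 0.35) and its sign depended on the libraries kept, from -0.08 without WT 5-6 to 0.23 without WT 8.

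Mapk14 was the only one of the 9 genes with more than 1 entry in the table. The second entry took 38.1% to 40.4% of the gene's reads in KO, 39.8% and 42.5% in WT 5-6 and WT 7, and 36.8%, 41.1%, 29.8% and 36.1% in KI libraries 5 to 8. In WT 8 it took 14.3%, with 288 reads beside 1727 in the first entry, so this library differed from the rest in how the reads of the gene were split as well as in their sum. The sum was used throughout. The ratio of Mapk12 to Mapk14 counts was 0.0394 to 0.0538 in KO, 0.140 to 0.369 in WT and 0.315 to 0.417 in KI, and the KO libraries did not overlap the others.

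The window upstream of Mapk12 is shown as that of the p38 gene with the larger difference. It lies at chr15:89140704-89140953 on the minus strand, is 64.4% G or C and held 1 GC box and 1 E-box.
Mapk12: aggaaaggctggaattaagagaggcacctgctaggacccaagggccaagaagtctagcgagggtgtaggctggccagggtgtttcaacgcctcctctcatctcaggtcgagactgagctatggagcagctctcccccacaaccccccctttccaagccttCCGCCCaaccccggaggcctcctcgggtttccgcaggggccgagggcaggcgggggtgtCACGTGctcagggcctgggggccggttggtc
The windows at the 2 Mapk14 starts held 1 GC box and 1 CCAAT box at the first and no match at the second.

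Pea15a had the largest difference of the 9 genes in KO cells. It encodes PEA-15, a small protein that binds ERK and holds it in the cytoplasm, and that also binds the death receptor adaptor FADD. Its level was 69.5, 70.0, 70.4 and 67.0 CPM in KO, 595, 566 and 671 CPM in WT and 411, 421, 436 and 423 CPM in KI. The 3 groups were fully apart, in the order KO, KI, WT. The log2 fold change was -3.16 ± 0.12 in KO against WT, 8.93-fold lower, and -2.61 ± 0.08 in KO against KI. Between KI and WT it was -0.53 ± 0.13, which is 1.44-fold lower, and -0.21 with scaling by library totals, where it was not called. The KO value stayed between -3.19 and -2.76 in all 14 alternatives run. Per kilobase of exon Pea15a was also the most abundant of the 9 genes in WT, at 158 CPM, followed by Mapk14 at 12.9, Dusp6 at 11.5 and Dusp4 at 9.91 CPM. In KO its 17.9 CPM per kilobase was below the 19.3 CPM of Mapk14.

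Mapk3, which encodes ERK1, a kinase that PEA-15 binds, was not called lower in KO cells. It was at 273 ± 14.5 CPM (SD, n = 4) in KO, 245 ± 25.5 (n = 3) in WT and 232 ± 9.04 (n = 4) in KI. It was called in KO against KI (0.24 ± 0.08, adjusted p = 0.0171, edgeR) but not in KO against WT (0.14 ± 0.12, adjusted p = 0.348), where it became 0.55 and called with library totals, or in KI against WT (-0.08 ± 0.13, adjusted p = 0.662). As a ratio of counts, Pea15a to Mapk3 was 0.241 to 0.276 in KO, 2.27 to 2.63 in WT and 1.76 to 1.98 in KI, with no overlap between groups. Of the genes on chromosome 7, where Mapk3 lies, the median log2 fold change was 0.53 in KO against WT (932 genes) and 0.43 in KO against KI, beside -0.03 and 0.00 over all genes. The part of this shift in the values of Mapk3 was not tested.

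The upstream window of Pea15a, shown because this gene differed most in KO cells, lies at chr1:172206805-172207054 on the minus strand.
Pea15a: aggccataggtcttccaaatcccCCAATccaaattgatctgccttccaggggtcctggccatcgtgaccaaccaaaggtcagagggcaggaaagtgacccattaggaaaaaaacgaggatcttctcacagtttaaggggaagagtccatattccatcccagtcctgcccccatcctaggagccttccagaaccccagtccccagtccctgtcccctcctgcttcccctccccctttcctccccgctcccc
It held 1 CCAAT box and was 56.4% G or C. The window of Dusp6, whose level went the other way in KI cells, also held 1 CCAAT box and was 56.4% G or C, and that of Spry2 held no match and was 62.4% G or C.

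Neither phosphatase gene was lower in KO than in WT, while both Sprouty genes were. Dusp6 encodes a cytoplasmic phosphatase specific to ERK. It was at 37.7, 40.3, 39.6 and 46.1 CPM in KO, 32.9, 38.9 and 36.0 CPM in WT and 67.0, 70.6, 59.9 and 64.0 CPM in KI. The KI libraries lay above all others while KO and WT overlapped. Its log2 fold change was 0.86 ± 0.13 in KI against WT (1.82-fold higher) and -0.67 ± 0.09 in KO against KI. In KO against WT it was 0.17 ± 0.13, with an interval from -0.12 to 0.45, and with library totals it was 0.58 and called.

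Dusp4 encodes a nuclear phosphatase that acts on ERK and JNK. Its level was 33.9, 32.2, 34.3 and 33.9 CPM in KO, 20.1, 30.5 and 30.9 CPM in WT and 33.9, 36.9, 39.5 and 33.2 CPM in KI. Both edited lines lay above every WT library, with WT 5-6 well below the rest, and they overlapped each other. Neither difference from WT was called (0.28 ± 0.16 in KO and 0.40 ± 0.17 in KI), although both were called without WT 8 (0.41 and 0.50) and with library totals (0.68 and 0.71). Between KO and KI, Dusp4 differed by -0.09 ± 0.09, with an interval from -0.29 to 0.11.

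Spry2 and Spry4 encode Sprouty proteins, which ERK signalling induces and which dampen receptor signalling to RAS and RAF. Spry2 was at 3.5, 4.86, 2.67 and 3.70 CPM in KO, 7.98, 7.99 and 9.45 CPM in WT and 6.26, 8.30, 6.82 and 6.72 CPM in KI. KO libraries lay below all others, and KI overlapped WT in a single library, KI 6. The log2 fold change was -1.21 ± 0.22 in KO against WT (2.31-fold lower), -0.92 ± 0.19 in KO against KI and -0.27 ± 0.18 in KI against WT. The last value had an interval from -0.66 to 0.12 and was 0.04 with library totals.

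Spry4 was the least abundant of the 9 genes, with 8 to 15 reads per library in KO, 43 to 122 in WT and 40 to 66 in KI. In CPM that was 0.420, 0.237, 0.420 and 0.345 in KO, 2.76, 1.73 and 4.32 in WT and 1.12, 1.82, 1.49 and 1.67 in KI. KO lay apart from the other groups, and KI overlapped WT through WT 7. Its log2 fold change was -2.86 ± 0.41 in KO against WT (7.26-fold lower) and -1.94 ± 0.39 in KO against KI. Between KI and WT it was -0.92 ± 0.35 and ranged from -1.19 without WT 7 to -0.54 without WT 8, and was called in 5 of 14 alternatives. The ratio of Spry2 to Dusp6 counts, one ERK-induced inhibitor over another, was 0.0674 to 0.120 in KO and 0.0935 to 0.118 in KI, which overlapped, against 0.205 to 0.263 in WT.

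Chromosome medians moved beside some of these genes. The 398 genes of chromosome 14, which carries Mapk8 and Spry2, that were tested in KO against WT had a median log2 fold change of -0.36, and the 405 tested in KI against WT had a median of -0.38. On chromosome 11, which carries Mapk9, the median in KO against WT was -0.34 over 1009 genes, opposite in sign to Mapk9. On the chromosome of Spry4 it was -0.32 over 300 genes. For the other 5 genes, the chromosome medians in KO against WT were between -0.10 and 0.14. Medians also moved in the other comparisons. In KO against KI they were -0.37 on the chromosome of Spry4, -0.27 on those of Mapk9 and Dusp4 and 0.18 on that of Mapk14. In KI against WT they were 0.23 on the chromosome of Mapk12 and 0.20 on that of Dusp4. The part of chromosome-wide shifts in the members' values was not tested.

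**Figure D3:**
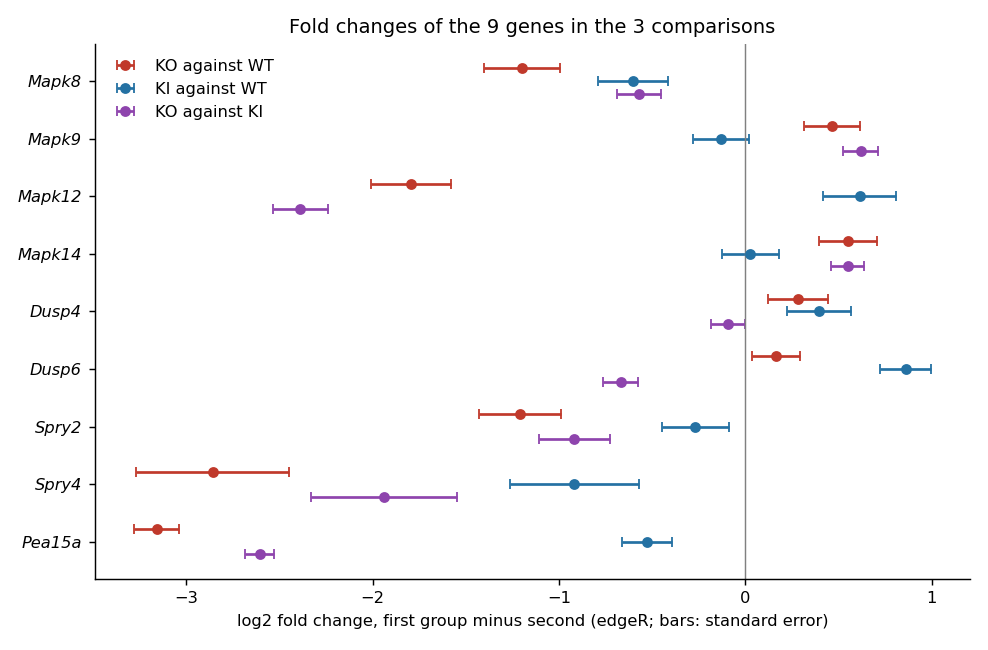
Log2 fold change (edgeR, bars for the standard error) of the 9 genes in KO against WT, KI against WT and KO against KI, with 0 marked by a line. Mapk8, Mapk12, Spry2, Spry4 and Pea15a were negative and Mapk9 and Mapk14 positive in KO against both other groups, while Dusp6 was positive in KI against WT.

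For each gene the most similar profiles over the 11 libraries were sought among 11869 genes, by Pearson's r of log2 CPM. They were Stra6 and Flt1 for Pea15a (0.999 and 0.998), Eapp and Zmat2 for Mapk8 (0.994 and 0.991), Tpbg and Timp1 for Mapk12 (0.989 and 0.986), and Hes1 and Rrbp1 for Mapk9 (0.985 and 0.984). Sec31a was nearest to Mapk14 (0.984), Mid1ip1 to Dusp6 (0.980), Igsf23 to Spry4 (0.981), Exoc3l4 to Spry2 (0.968) and Cilk1 to Dusp4 (0.940). Among the 9 genes themselves, the highest values were 0.935 for Mapk9 with Mapk14, 0.934 for Pea15a with Spry4 and 0.930 for Pea15a with Spry2, and the lowest were -0.899 for Mapk8 with Mapk14 and -0.893 for Mapk9 with Mapk12. The 11 libraries fall into 3 groups, so these values mainly describe how the group means line up.

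The rest of the pathway was read from 10 lists with 122 genes, all in the table, which were chosen with earlier results of these data known. In KO against WT, 108 of them were tested, and 27 rose and 29 fell (51.9% called, median log2 fold change 0.05), beside 55.1% of all genes tested with a median of -0.03. In KI against WT, 27 of 107 rose and 15 fell (39.3% called, median 0.09, against 42.3% and -0.02 over all genes). In KO against KI, 30 of 106 rose and 30 fell (56.6% called, median 0.00, against 54.0% and 0.00). With scaling by library totals the median of all genes moved from -0.03 to 0.38 in KO against WT and from -0.02 to 0.30 in KI against WT, and the pathway split became 49 higher and 10 lower in KO and 39 higher and 6 lower in KI. Without WT 8 it was 39 higher and 27 lower in KO and 36 higher and 17 lower in KI. Directions below are relative to the TMM centre, and calls that library totals ended are named. The counts of each list below stand beside the shares of all genes called, 55.1%, 42.3% and 54.0% in the same order. Without WT 8, 61.8% of all genes were called in KO against WT and 50.4% in KI against WT. No list was tested against all genes. Hras, Dusp8, Ccnd1 and Iqgap1, called higher in KO against WT, lie on chromosome 7, whose median there was 0.53. Rras2 and Spred3, called lower, lie on it too. Further list genes on chromosome 7 that are not named here were called in KO against WT as well, in both directions. The part of the chromosome-wide shift in their values was not tested.

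**Figure D4:**
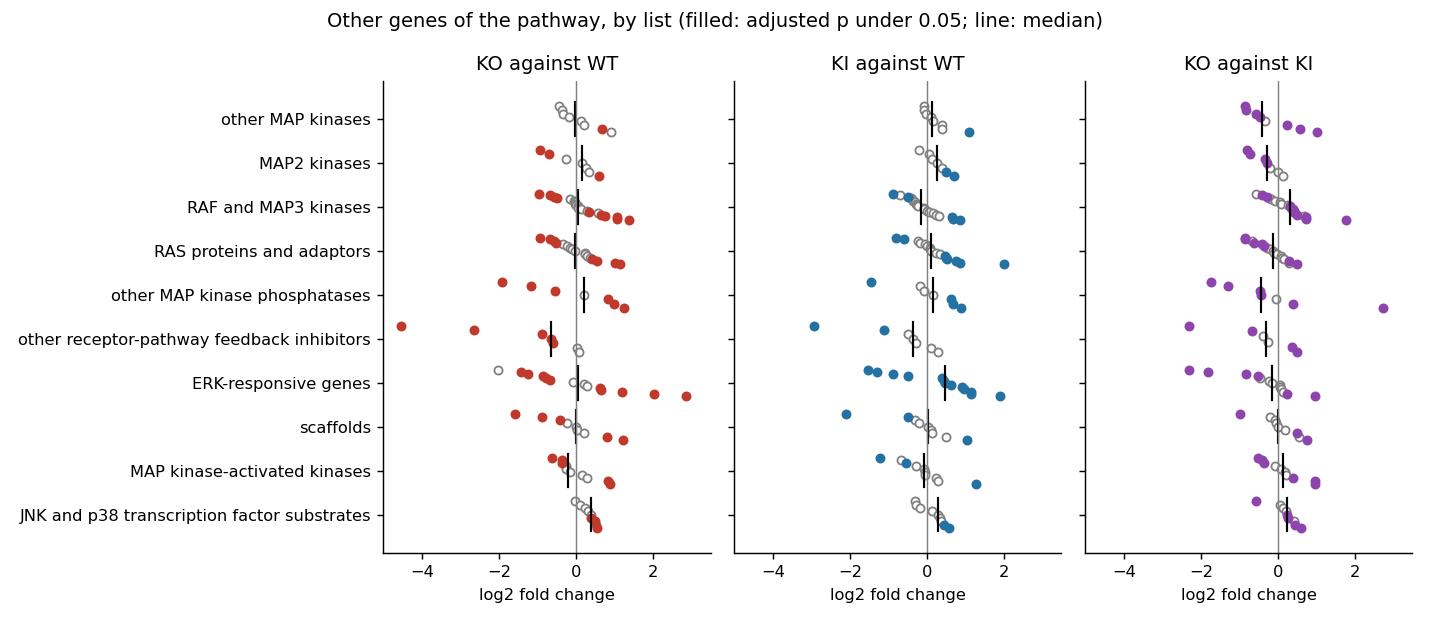
Log2 fold change of every tested gene of the 10 pathway lists in the 3 comparisons, each point a gene, filled where the adjusted p was under 0.05 (edgeR), with a black line at the list's median. The leftmost point in both comparisons with WT is Spry3, which had almost no reads in KO, so its place depends on the prior count. The receptor-pathway feedback inhibitors in KO against WT were called only lower (5 of 7), where 28.4% of all genes tested were called lower. Of 13 ERK-responsive genes in KI against WT, 12 were called, where 42.3% of all genes tested were called.

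Among the upstream adaptors and RAS proteins, 4 of 17 rose and 4 fell in KO against WT, 6 rose and 2 fell in KI against WT, and 2 were higher and 5 lower in KO against KI. Without WT 8 the counts were 7 higher and 4 lower in KO against WT and 7 and 2 in KI against WT. Hras, a classical RAS gene, was at 99.2 ± 6.79 CPM in KO, 48.7 ± 3.24 in WT and 70.6 ± 7.79 in KI (1.01 ± 0.12 in KO against WT, adjusted p = 3.97e-05, and 0.54 ± 0.14 in KI against WT, adjusted p = 0.00688). Mras, whose product helps to activate RAF, rose in both edited lines, by 1.14 ± 0.25 in KO (adjusted p = 0.00290) and by 2.00 ± 0.20 in KI (adjusted p = 1.19e-05). Rras2 fell in KO (-0.93 ± 0.20) and in KI (-0.80 ± 0.21, a call that library totals or leaving out WT 7 ended). Grb2, the adaptor that brings SOS to receptors, fell in KO (-0.66 ± 0.13), which library totals ended. Gab2, a docking protein gene, rose in KI (0.77 ± 0.19) and was lower in KO than in KI (-0.85 ± 0.13).

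Of 20 RAF and MAP3 kinase genes tested, 6 rose and 4 fell in KO against WT, 3 rose and 2 fell in KI against WT, and 10 were higher and 2 lower in KO against KI. Without WT 8 the counts were 9 higher and 4 lower in KO against WT and 3 and 3 in KI against WT. Araf, a RAF gene, fell in both lines (-0.48 ± 0.11 in KO and -0.50 ± 0.12 in KI), and library totals ended both calls. Map3k6 and Map3k5 encode the stress kinases ASK2 and ASK1. Map3k6 was at 13.0 ± 1.59 CPM in KO against 4.85 ± 0.377 in WT (1.39 ± 0.17, adjusted p = 5.78e-05), and Map3k5 was higher in KO than in WT (0.65 ± 0.18) or KI (0.74 ± 0.12). Map3k2 fell in KO (-0.67 ± 0.15) and Map3k1 in KI (-0.87 ± 0.19), both ended by library totals. Map3k20, which encodes the ribotoxic stress kinase ZAK, rose in both lines (0.76 ± 0.18 in KO and 0.86 ± 0.16 in KI).

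At the MAP2 kinase level, 1 of 7 genes rose and 2 fell in KO against WT, 2 rose and none fell in KI against WT, and none was higher and 4 were lower in KO against KI. Map2k1, which encodes the ERK kinase MEK1, was at 109 ± 9.35 CPM in KO, 174 ± 7.02 in WT and 190 ± 9.95 in KI (KO against WT -0.70 ± 0.11, adjusted p = 0.000388; -0.29 and not called with library totals). Map2k6 and Map2k3 both encode p38 kinases, and in KO against WT they went opposite ways, -0.94 ± 0.14 for Map2k6 and 0.61 ± 0.17 for Map2k3. Map2k3 was also called higher in KI (0.50 ± 0.17), which leaving out any of 5 libraries ended. Map2k7, a JNK kinase, rose in KI (0.70 ± 0.15). Without WT 8 the called MAP2 kinase genes numbered 5 in KO against WT and 4 in KI against WT.

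The other MAP kinase genes were the list with the fewest calls against WT. Of 8 tested, 1 was called in KO and 1 in KI, both higher, where 55.1% and 42.3% of all genes were called. The gene called in KI was Mapk6, which encodes the atypical kinase ERK3 (135 ± 22.1 CPM against 63.3 ± 8.38 in WT, 1.09 ± 0.17, adjusted p = 0.000289). Without WT 8 the calls numbered 3 in KO and 2 in KI. In KO against KI, 3 were higher and 4 lower, among them Mapk6 (-0.85 ± 0.11) and Nlk, a kinase of the Wnt pathway (-0.56 ± 0.10). Mapk10, the JNK3 gene, and Mapk13, the p38 delta gene, were too low to test, with at most 10 and 4 reads in any library.

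The other phosphatase genes went both ways. Of 7 tested in KO against WT, 3 rose and 3 fell (85.7% called, beside 55.1% of all genes). In KI against WT, 3 rose and 1 fell (57.1%, beside 42.3% of all genes). In KO against KI, 2 were higher and 4 lower (85.7%, beside 54.0% of all genes). Dusp1, an immediate-early phosphatase for p38, JNK and ERK, was at 151 ± 5.87 CPM in KO, 62.5 ± 10.2 in WT and 22.9 ± 2.07 in KI. It rose in KO by 1.25 ± 0.14 (adjusted p = 3.05e-05), fell in KI (-1.45 ± 0.15, adjusted p = 1.64e-05) and was 2.72 ± 0.09 higher in KO than in KI (adjusted p = 1.15e-11). Dusp5 and Dusp9, whose products act on ERK, fell in KO (-1.18 ± 0.21 and -1.93 ± 0.26), with 1.36 ± 0.312 CPM of Dusp9 left against 5.29 ± 0.478 in WT. Dusp7, another ERK phosphatase gene, rose in both lines (0.83 ± 0.12 in KO and 0.88 ± 0.17 in KI). Dusp8, which acts on JNK and p38, rose in KO (0.99 ± 0.21) and was called in KI (0.62 ± 0.23), a call that leaving out any library but WT 7 ended. Dusp10, which acts on JNK and p38 too, rose in KI (0.68 ± 0.14).

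The receptor-pathway feedback inhibitors other than Spry2 and Spry4 fell or were not called in KO cells. Of 7 tested in KO against WT, 5 fell and none rose, with a median of -0.63, and the counts were 5 and 0 without WT 8 too. Of all genes tested there with every library, 28.4% were called lower and 26.7% higher. With library totals 2 fell and none rose, and Errfi1, Spred1 and Spred3 were no longer called. The 5 were Errfi1, an EGF receptor inhibitor (-0.63 ± 0.12), Spred1 (-0.60 ± 0.12) and Spred3 (-0.89 ± 0.21), relatives of the Sproutys that act on RAS and RAF, and the low genes Il17rd (-2.64 ± 0.74), a receptor-like inhibitor of ERK signalling, and Spry3. Il17rd had 4, 0, 0 and 10 reads in KO and 14, 27 and 26 in WT, and its call ended without WT 7. These 2 low genes fell outside the rule for naming genes and were named after their values were seen. Spry3 had 0, 0, 0 and 2 reads in the KO libraries, 42, 54 and 30 in WT and 2, 10, 4 and 8 in KI. In KI against WT, 2 fell and none rose, Errfi1 (-1.12 ± 0.13, adjusted p = 4.62e-05) and Spry3 (adjusted p = 0.00115), and without WT 8 the counts were 3 lower and 1 higher. In KO against KI, 2 of 6 were higher and 2 lower, Errfi1 among the higher (0.51 ± 0.09) and Spred1 among the lower (-0.67 ± 0.09).

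ERK-responsive genes went both ways within each line. In KO against WT, 5 of 14 tested rose and 5 fell (71.4% called, beside 55.1% of all genes). Between KI and WT, 8 of 13 rose and 4 fell (92.3%, beside 42.3% of all genes). With library totals 8 rose and 1 fell there. With the library number added to the fit as a block, 2 rose and 2 fell. Fosl1, which encodes the AP-1 subunit FRA1, was at 25.2 ± 5.19 CPM in KO and 12.8 ± 1.65 in KI against 3.38 ± 1.18 in WT (2.85 ± 0.26 and 1.90 ± 0.24). Ccnd1, the cyclin D1 gene, rose by 1.19 ± 0.15 in KO and 1.14 ± 0.16 in KI. Egr1, an immediate-early transcription factor gene, fell in both, to 21.1 ± 4.82 and 20.1 ± 2.13 CPM from 49.4 ± 9.35 in WT, and so did Fos (-0.76 ± 0.21 in KO, adjusted p = 0.0104, and -0.88 ± 0.28 in KI, adjusted p = 0.0228). Library totals ended both Fos calls, and leaving out WT 7 or KI 5 ended that in KI. Etv4, an ETS factor gene, fell in KO (-1.42 ± 0.19) and rose in KI (0.90 ± 0.19), so that KO was 2.30 ± 0.17 below KI on the log2 scale (adjusted p = 3.21e-08). Ier3, an immediate-early gene, stood at 19.5 ± 1.74 CPM in KO and 68.2 ± 4.78 in KI (-1.80 ± 0.10, adjusted p = 9.69e-10), with WT at 35.0 ± 2.90 between them (-0.86 ± 0.13 in KO and 0.96 ± 0.13 in KI).

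Scaffold genes, which hold the kinases of a cascade together, gave 2 rises and 3 falls of 9 tested in KO against WT and 1 rise and 2 falls in KI against WT, where the counts without WT 8 were 2 and 3. Iqgap1 rose in KO (1.22 ± 0.19) and Ksr1, a RAF and MEK scaffold, fell there (-0.88 ± 0.22, ended by library totals). Mapk8ip1, which encodes the JNK scaffold JIP1, fell to 2.88 ± 0.547 CPM in KO and 1.96 ± 0.419 in KI from 8.62 ± 0.308 in WT (adjusted p = 8.36e-05 and 2.04e-05). Lamtor3, which encodes the MEK partner MP1, rose in both (0.81 ± 0.16 and 1.04 ± 0.18). Between KO and KI, 2 scaffold genes were higher and 1 lower in KO.

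Downstream, 2 of 10 MAP kinase-activated kinase genes rose and 3 fell in KO against WT, 1 rose and 2 fell in KI against WT, and 3 were higher and 3 lower in KO against KI. Without WT 8, 2 rose and 1 fell in KO and 2 rose and 2 fell in KI. Rps6ka1, which encodes the ERK-activated kinase RSK1, was higher in KO (38.5 ± 5.56 CPM) than in WT (20.5 ± 8.04) or KI (19.6 ± 1.06). Rps6ka2 rose in both lines (0.84 ± 0.19 and 1.28 ± 0.23). Mapkapk3, a p38-activated kinase gene, fell in KI (-1.21 ± 0.20). Among 9 transcription factor genes whose products JNK or p38 phosphorylate, 3 rose in KO against WT and 2 in KI against WT, none fell in either, and without WT 8 the rises numbered 6 and 5. Jun, the main JNK substrate, rose in KO (0.55 ± 0.13, adjusted p = 0.00348) and KI (0.44 ± 0.14, adjusted p = 0.0233; not called without WT 7, KI 7 or KI 8), and Elk1 rose in KI (0.58 ± 0.14). In KO against KI, 4 of the 9 were higher and 1 lower.

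**Figure D5:**
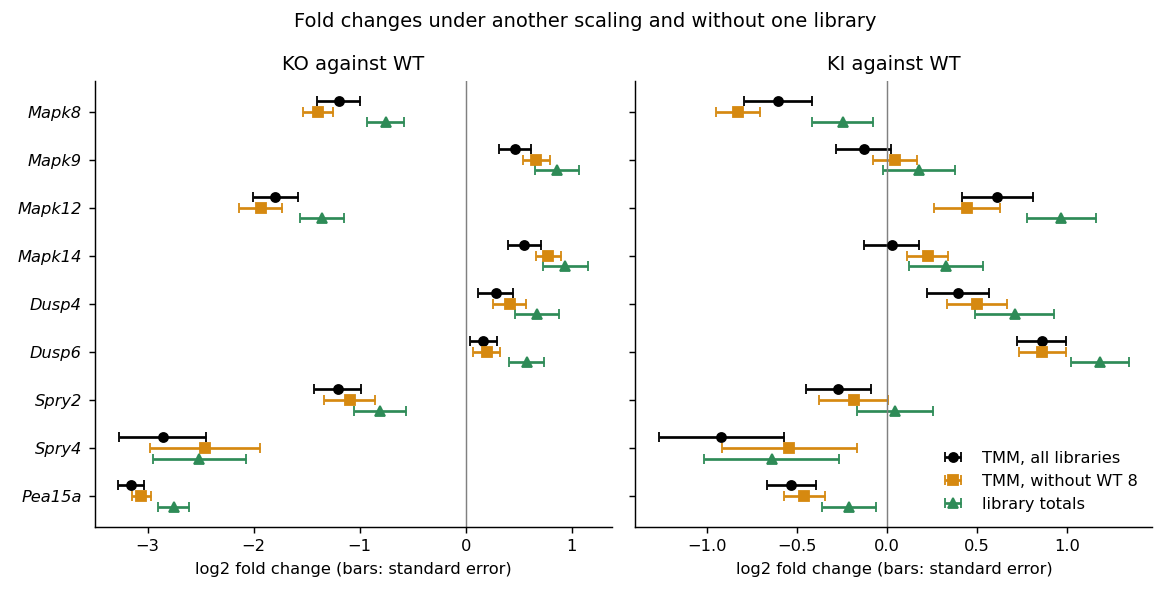
Log2 fold change of the 9 genes in KO against WT and KI against WT under TMM with all libraries (black), under TMM without WT 8 (orange) and scaled by library totals (green), with bars for the standard error. Against TMM with all libraries, library totals moved every gene upwards, and in KI against WT they turned Mapk9 and Spry2 from below to above 0.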

How the data were processed

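Gene-level RNA-seq tables of 11 AML12 libraries were used. Reads were cleaned, mapped and quantified at a sequencing centre; the submitters' processing notes name HISAT2, TopHat2, Bowtie2 and StringTie without roles, and the genome build and versions are not given in the sources used here. The authors deposited whole-number read counts per gene entry, beside FPKM values and columns of their own 3 comparisons (fold changes and p-values), which were not used. Of 26472 lines, 10 without whole-number counts in every library were left out, and the counts of 23502 annotated and 2960 newly assembled entries were summed by name to 24849 genes; 1131 names, among them Mapk14 and 9 pathway genes, had several entries, whose reads the counting could have split or shared. The library protocol is not stated to keep strand.

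Each pair of groups was fitted with edgeR 4.0.16 in R 4.3.3 (filterByExpr, TMM, robust quasi-likelihood test, prior count 2), with Benjamini-Hochberg adjustment over all genes tested and a call at 0.05. The SE is the absolute log2 fold change over the square root of F, and 95% intervals use the fit's degrees of freedom. Levels are CPM scaled by TMM over all 11 libraries, so a fold of mean levels can differ slightly from a fitted one. The fit was tested on simulated counts. Total counts were 29840366 to 38422243 per library; Spry4 had as few as 8 reads, and each other member at least 89. The 9 genes, the 10 lists and the markers were chosen with earlier results of these data known. Genes named from the lists were those called with the largest rises and falls (up to 2 each way per list and comparison) with a mean log2 CPM of at least 1 and no overlap between groups, plus Txndc5 and Mapk3; fewer are printed, and some results are not reported here. No 2 libraries of a group agreed within sampling noise (chi-square per degree of freedom 17.2 to 169). Alternatives were DESeq2 1.42.0, its size factors in edgeR, library totals, no filter, all 11 libraries in one fit, annotated entries only, a replicate block and leaving out each library. Chromosomes and exon lengths came from GENCODE vM21 by symbol. Figures were drawn with matplotlib 3.10.9.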

Additional observations from a re-analysis of the deposited data

Results flagged for a closer look

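In groups of 4 libraries, a library was singled out where its gap to the nearest other one, divided by the whole range, passed Dixon's 95% critical value. Of 107 groups of printed genes, 3 did so, where chance alone gives about 1 in 20, or 5.35. None of the 9 genes was among them. Map2k3 in KI 7 was at 42.3 CPM, against 50.1 to 50.9 in the other KI libraries (gap ratio 0.915). Errfi1 in KI 7 was at 133 CPM, against 116 to 117 (0.955). Mapk6 in KI 8 was at 102 CPM, against 143 to 150 (0.850).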

How the results depend on the processing

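Counts of called genes, members and pathway-list genes moved by less than 1.5 times in KO against WT and KO against KI under every alternative run. In KI against WT, 3 members were called with library totals in place of 5. Mapk12 and Dusp6 stayed called, Mapk8, Spry4 and Pea15a did not, and Dusp4 became called. The replicate block lowered the called genes there from 5722 to 1338, the called members from 5 to 0 and the called pathway-list genes from 42 to 10 (edgeR; 2 members had an unadjusted p under 0.05 with the block, and DESeq2 without it called 5). Only 2 numbers are shared with WT, so in both comparisons with WT the block used 4 of 7 libraries for the difference and left 1 residual degree of freedom. With the replicate block 6158 genes, 7 members and 48 pathway-list genes were called in KO against WT and 6453, 8 and 51 in KO against KI. The numbers were not taken to pair the libraries. Deviations from the group means in same-numbered KO and KI libraries correlated at -0.280 to 0.0473. Between KO and KI, 0 of 8 libraries correlated best with its own number. KO 7 with WT 7 (0.0675) and KO 8 with WT 8 (0.512) were each that KO library's highest value with WT. KI 7 with WT 7 was at -0.211 and KI 8 with WT 8 at -0.385. Over all 8 same-numbered pairs the range was -0.385 to 0.512, so a pairing of KO with WT by number was not settled. Leaving out each library in turn gave 6161 to 8449 called genes in KO against WT, 4276 to 6969 in KI against WT and 6515 to 7230 in KO against KI, with 5 to 8, 2 to 4 and 8 called members and 49 to 66, 34 to 53 and 50 to 60 called pathway-list genes. In both comparisons with WT the most genes were called without WT 8, and in KI against WT the called members numbered 2 without KI 6 and 3 without WT 5-6, WT 7 or KI 7. The sign turned for Mapk3 in KI against WT (0.25 with library totals), which was not called in any setting. With library totals the share of higher genes among those called rose from 48.4% to 72.8% in KO against WT and from 50.2% to 76.3% in KI against WT. Few reads limit Spry4, Spry3 and Il17rd.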
